A study of Homo sapiens with 10 samples.

Results

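Integrins are cell-surface receptors made of 1 alpha and 1 beta chain, and each chain reaches the surface only in a pair with a partner. They bind matrix proteins such as fibronectin, laminin and collagen, or receptors on other cells, and proteins inside the cell switch them between a resting and a binding state. In blood cells, the beta2 integrins bind ICAM proteins on vessel walls and other leukocytes, while alpha4 with beta1 binds VCAM1 and fibronectin and helps to hold stem cells and leukemia cells in the marrow. The genes described here are 35 named integrin chains and leukocyte adhesion molecules, taken by symbol from a table of 50868 genes: 18 alpha chains, 8 beta chains, 7 immunoglobulin-type receptors (ICAM1, ICAM2, ICAM3, ICAM4, VCAM1, PECAM1 and JAM3), the selectin ligand SELPLG and the hyaluronan receptor CD44. All 35 symbols were found, each once.

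RNA was sequenced from Kasumi-1, an established line of acute myeloid leukemia cells that carries the t(8;21) translocation, after retroviral transduction. One library each came from cells overexpressing HA-tagged E2-2 (gene TCF4), HA-tagged E2A (gene TCF3) or HA-tagged HEB (gene TCF12), and 1 from control cells carrying the empty MIGR1 vector. All 4 cultures carry the translocation and a GFP-marked retrovirus, and the cells were sorted for GFP on day 4 after infection before RNA was made. E2-2, E2A and HEB are E proteins, transcription factors that bind DNA at the letters CANNTG (the E-box), and the study compared their roles in this leukemia. The model is 1 cell line with factor levels set by a viral vector, and the resident copies of TCF3 and TCF12 are expressed in all 4 cultures. The HA ChIP-seq libraries were not analysed here.

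Library totals ran from 14816708 to 17673090 counted reads. Each transduced factor gene was called higher in its own library than in vector, at 3210.1-fold for TCF4, 5.20-fold for TCF3 and 5.08-fold for TCF12. TCF4 had fewer than 30 reads over E2A and vector together, so its fold rests on few vector reads. The folds start from unlike vector levels and do not rank the amounts of the factors. Levels are given in CPM (reads per 1000000 of a library scaled with TMM), for comparison between libraries and not between genes, since gene length is not taken out. Each group is a single library (n = 1), so no difference has a check against replicates and no test across samples was made. The range in parentheses after a fold is a 95% exact interval that covers counting error only, and differences between cultures are not in it. Calls required a 2-fold difference or more, an interval without 1 in it and a sum of 30 or more reads over the pair of libraries. The calls describe these libraries, and fewer cells with an RNA and less of it per cell cannot be told apart. Of the markers of t(8;21) myeloblasts, 6 of 7 were at 28.3 CPM or more in all 4 libraries, and CD38 was at 0.623 to 1.45 CPM.

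ITGA6, which had more reads than any other called member, is shown first with the sequence upstream of it. RefSeq (GRCh38.p14) windows were available for 22 of the 35 members. The next lines give the 250 bases before the annotated start of ITGA6 (chr2:172427086-172427335, plus strand), of ICAM1 (chr19:10270870-10271119, plus strand), of ITGA5 (chr12:54419267-54419516, minus strand) and of ITGB1 (chr10:32958231-32958480, minus strand), 5′ to 3′. ICAM1 is shown as a called member that was highest in HEB and lowest in E2-2, and ITGA5 and ITGB1 as genes with many reads and small differences. Capitals mark every CANNTG, which reads the same on both strands.
ITGA6: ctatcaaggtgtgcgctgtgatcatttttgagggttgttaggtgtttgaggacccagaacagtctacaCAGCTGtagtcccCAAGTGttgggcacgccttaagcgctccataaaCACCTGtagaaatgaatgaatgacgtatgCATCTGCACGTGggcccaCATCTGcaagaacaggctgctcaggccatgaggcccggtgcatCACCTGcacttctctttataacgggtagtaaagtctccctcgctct
ICAM1: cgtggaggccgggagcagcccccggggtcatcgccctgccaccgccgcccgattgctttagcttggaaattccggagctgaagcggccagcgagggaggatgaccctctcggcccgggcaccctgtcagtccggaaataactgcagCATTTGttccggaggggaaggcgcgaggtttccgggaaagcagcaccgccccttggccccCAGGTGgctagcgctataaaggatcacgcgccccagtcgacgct
ITGA5: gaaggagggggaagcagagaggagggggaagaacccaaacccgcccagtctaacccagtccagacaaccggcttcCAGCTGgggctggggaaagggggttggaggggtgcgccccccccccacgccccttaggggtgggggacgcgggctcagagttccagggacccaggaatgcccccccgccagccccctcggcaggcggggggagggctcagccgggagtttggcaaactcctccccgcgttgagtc
ITGB1: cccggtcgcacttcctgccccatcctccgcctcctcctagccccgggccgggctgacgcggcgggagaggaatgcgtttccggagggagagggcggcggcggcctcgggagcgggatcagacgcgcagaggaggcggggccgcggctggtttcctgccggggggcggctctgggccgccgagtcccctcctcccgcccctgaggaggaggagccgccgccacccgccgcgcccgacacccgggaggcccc

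The ITGA6 window held 7 E-boxes, 1 of them CAGCTG and 2 of them CACCTG. Counting CANNTG in the same way over 35116 RefSeq windows of this length, 61.8% held at least 1, the median was 1 and 0.128% held 7 or more. The ICAM1 window held 2 E-boxes, and 28.3% of windows held at least 2. One E-box stood in the ITGA5 window and 0 in the ITGB1 window, as in the windows of ITGA4 and CD44. The window of ITGAE, a measured member that was not called, held 2, as many as that of ICAM1. Each ICAM3 window held 1, and ICAM3 was not called either. ITGB2, ITGAX and ITGA3 had no window, and a link of E-box number with the calls was not tested. CAGCTG was found in 14.0% of all windows, and CACCTG or its reverse CAGGTG in 17.5%. The 250 bases before a second annotated start of ITGA6 follow on the first window and held 2 E-boxes. Over all members with a window, 18 of 29 windows held an E-box. These matches are letters in a window and not sites of binding.

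Over the 4 libraries together, 23 of 35 members had at least 30 reads, 10 had 1 to 29 and 2 had 0. ITGAD, an alpha chain of the beta2 family, and ICAM4, a red cell adhesion protein, were the 2 without a read, and 3 reads would correspond to 0.170 to 0.198 CPM. At the other end ITGA4, ITGA5, ITGA6, ITGAV, ITGB1 and CD44 each had 1216 reads or more in every library. In all, 20 members could be read in at least 1 comparison. Members together made up 0.188% of counts in E2-2, 0.192% in E2A, 0.196% in HEB and 0.208% in vector.

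Against vector, 4 members were called in at least 1 of the 3 comparisons. In E2-2, 3 of 19 measured members were called higher (ITGB2, ITGA3 and ITGA6), against 8.45% of all 13884 genes measured, and 1 was called lower (ITGAX), against 3.55% of all genes. In E2A, 2 of 19 members were called higher (ITGB2 and ITGA3; 4.89% of 13901 genes) and 1 lower (ITGAX; 1.58% of genes). In HEB, 1 of 20 members was called higher (ITGB2; 2.55% of 13695 genes) and 0 lower (1.23% of genes). With counts this small the shares of members and of all genes are given side by side, and nothing is read from their difference. At a threshold of 1.5-fold in place of 2, E2-2 had 4 members higher and 5 lower, E2A 3 higher and 2 lower, and HEB 4 higher and 2 lower. The median log2 fold of measured members was -0.27 in E2-2, -0.12 in E2A and -0.06 in HEB, beside -0.03, -0.01 and 0.01 over all measured genes. The 3 comparisons share the vector library. By the coordinates in the deposited table, ITGB2 lies at chr21:44885953-44931989, ITGAX at chr16:31355134-31382997, ITGA3 at chr17:50055968-50090481 and ITGA6 at chr2:172427354-172506282. The table names no build, and its start of ITGA6 falls within the first transcribed bases of the RefSeq GRCh38.p14 annotation of that gene.

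**Figure D1:**
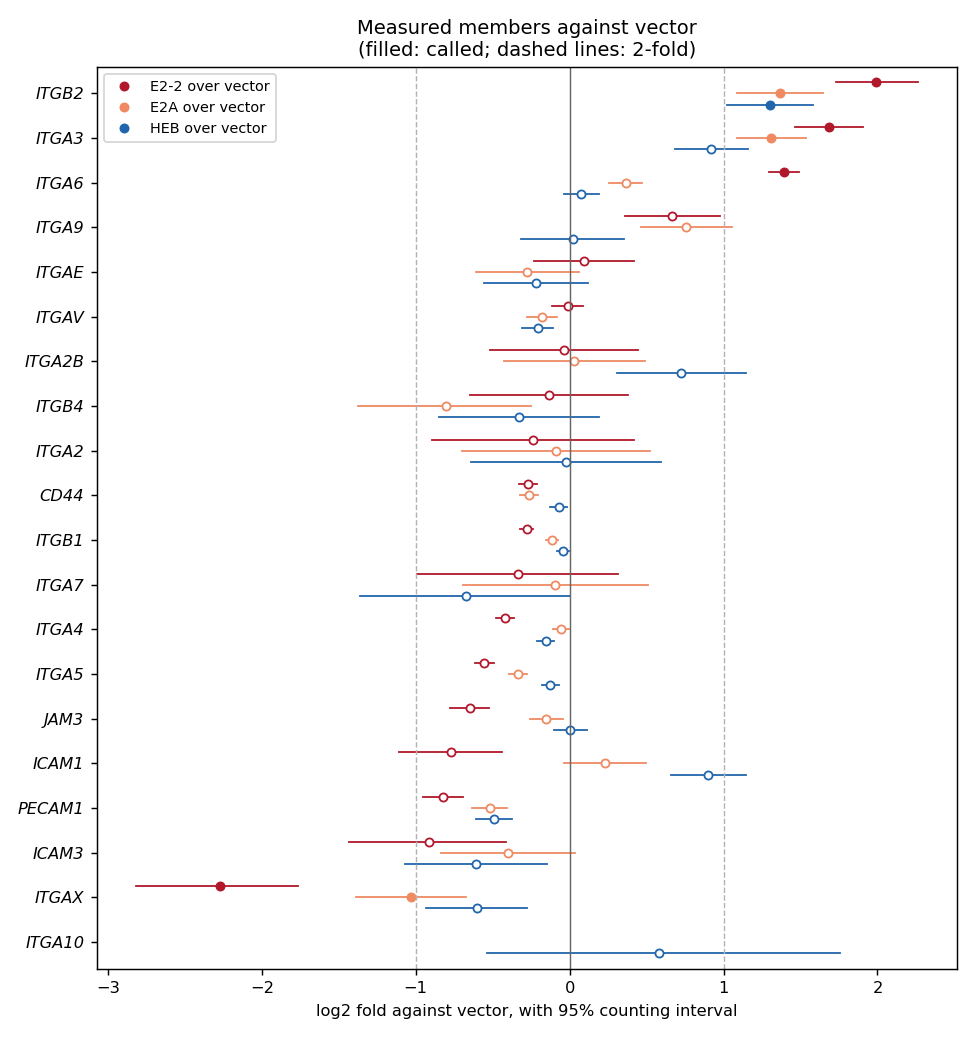
log2 fold of the measured members against vector (x axis) for E2-2, E2A and HEB, 1 row per gene, with lines for the 95% counting interval, filled points for called genes and dashed lines at 2-fold. ITGB2 lies beyond 2-fold higher in all 3 comparisons, ITGAX lies beyond 2-fold lower in E2-2 and E2A, and most other genes lie between the dashed lines.

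Of the measured members, ITGAX and ITGB2 of the beta2 family differed most from vector in E2-2; both are chains of integrins of leukocytes. ITGB2, the beta2 chain, had 565 reads in E2-2, 426 in E2A and 381 in HEB, against 146 in vector. These reads stood for 37.3, 24.1 and 23.0 CPM, against 9.36 CPM in vector. All 3 E protein libraries were above vector, and E2-2 was the highest. ITGB2 was higher by 3.98-fold (3.31 to 4.81) in E2-2 than in vector, higher by 2.58-fold (2.13 to 3.13) in E2A and higher by 2.46-fold (2.03 to 3.00) in HEB. E2A and HEB could not be told apart, with a fold of 1.05 (0.910 to 1.21) of E2A over HEB. An antisense gene, ITGB2-AS1, had 0 to 3 reads in each library.

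ITGAX, the alpha chain of CD11c/CD18 on monocytes and dendritic cells and a partner of beta2, went the other way. It had 38 reads in E2-2, 105 in E2A and 132 in HEB, against 189 in vector. The levels were 2.51, 5.94 and 7.98 CPM, against 12.1 CPM in vector. E2-2 was the lowest library and vector the highest, with E2A and HEB between them. ITGAX was lower by 4.84-fold (3.40 to 7.05) in E2-2 than in vector, lower by 2.04-fold (1.60 to 2.61) in E2A and lower by 1.52-fold (1.21 to 1.91) in HEB. The HEB value did not reach the 2-fold rule. The E2A call was close to that rule and was lost when the whole interval had to lie past 2-fold.

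Other alpha chains that pair with beta2 had few reads. ITGAL, which makes LFA-1 with beta2, had 7 reads in E2-2, 8 in E2A and 7 in HEB, against 6 in vector. ITGAM, which makes the complement receptor Mac-1, had 9 reads in E2-2, 7 in E2A and 16 in HEB, against 6 in vector. No fold is read from either gene at this depth. ITGAM, ITGAX and ITGAD lie next to each other on chromosome 16, with 22242 bases between ITGAM and ITGAX and 10315 between ITGAX and ITGAD. Of these neighbours, ITGAX alone had enough reads to be compared.

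Because beta2 chains need an alpha partner, the reads of ITGAX per read of ITGB2 were compared, a ratio within a library that no scaling changes. It was 0.0673 in E2-2, 0.246 in E2A and 0.346 in HEB, against 1.29 in vector. The ratio was lower by 19.2-fold (12.8 to 29.3) in E2-2 than in vector, lower by 5.24-fold (3.83 to 7.20) in E2A and lower by 3.73-fold (2.76 to 5.06) in HEB. It was thus lower in each E protein library. This follows from the opposite directions of ITGAX and ITGB2 given above, and the ratio is not a separate result. The value is a ratio of reads, which holds the lengths of both genes, and the amounts of the 2 proteins were not measured.

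Monocyte markers were set beside these genes, since ITGB2 and ITGAX are both used on myeloid cells. The 6 markers summed to 64.0 CPM in E2-2, 24.6 in E2A and 27.3 in HEB, against 24.4 in vector. CSF1R, the macrophage colony-stimulating factor receptor, accounted for 42.6 CPM of the sum in E2-2, with 10.8 in E2A, 6.83 in HEB and 1.47 CPM in vector. CD14, a monocyte surface protein, was at 0.0659 to 0.192 CPM in the 4 libraries. MS4A7, another macrophage marker of the list, was lowest in E2A and highest in vector, with 41 reads in E2-2, 35 in E2A and 42 in HEB, against 70 in vector, and was called lower in E2A. FCGR1A, a receptor for IgG, had 277 reads in E2-2, 202 in E2A and 290 in HEB, against 280 in vector. A part of these markers in the ITGB2 or ITGAX difference was not tested.

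**Figure D2:**
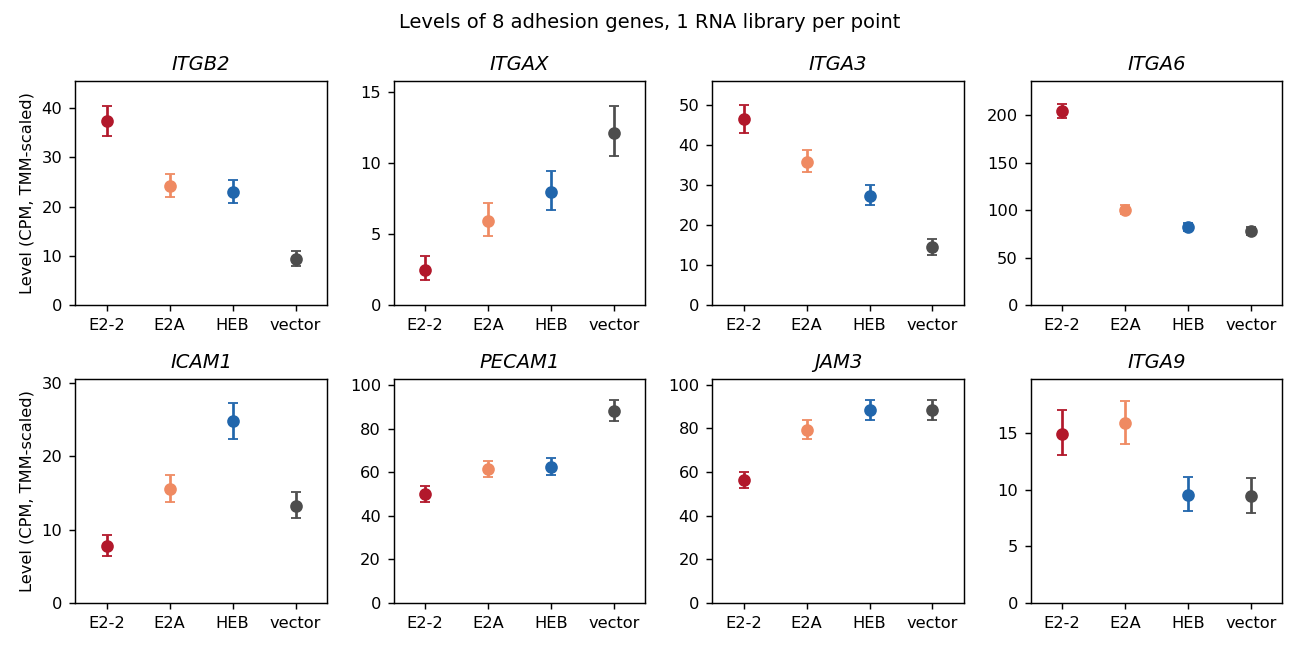
Levels of 8 adhesion genes in CPM (y axis from 0, a scale of its own for each gene), 1 point per RNA library, with lines for the 95% Poisson counting interval. ITGB2, ITGA3 and ITGA6 are highest in E2-2, ITGAX is below vector in all 3 E protein libraries, and ICAM1 is highest in HEB and lowest in E2-2.

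Laminin receptors gave the other called members. ITGA3, the alpha3 chain that pairs with beta1, had 705 reads in E2-2, 635 in E2A and 454 in HEB, against 226 in vector. These were 46.5, 35.9 and 27.4 CPM, against 14.5 CPM in vector. E2-2 was at the top, then E2A, HEB and vector, and the interval of every pairwise fold excluded 1. The gene was higher by 3.21-fold (2.76 to 3.74) than in vector in E2-2 and higher by 2.48-fold (2.13 to 2.90) in E2A. In HEB it stood at 1.89-fold (1.61 to 2.23) of the vector level, which the 2-fold rule does not call.

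ITGA6, the alpha6 chain of laminin receptors, which pairs with beta1 or beta4, differed mainly in E2-2. It had 3101 reads in E2-2, 1773 in E2A and 1360 in HEB, against 1216 in vector. The levels were 204, 100.3 and 82.2 CPM, against 78.0 CPM in vector. E2-2 stood apart, and HEB was within counting error of vector. ITGA6 was higher by 2.62-fold (2.45 to 2.81) in E2-2 than in vector, 1.29-fold (1.20 to 1.39) of vector in E2A and 1.05-fold (0.975 to 1.14) in HEB. A gene on the same stretch, AC093818.1, had 78 reads in E2-2, 65 in E2A and 39 in HEB, against 55 in vector, and AC078883.3, which also overlaps ITGA6, had 1 to 4 reads per library. Further overlaps among members with many reads are RP11-753H16.5 with ITGA5, AK3P5 with ITGB1, and RP1-68D18.2 and RP1-68D18.4 with CD44, the last pair at 5 to 14 reads per library.

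The remaining laminin receptor chains were not called. ITGB4, the beta4 chain, had 63 reads in E2-2, 46 in E2A and 60 in HEB, against 71 in vector. ITGB4 was lower by 1.75-fold (1.19 to 2.59) in E2A than in vector. It overlaps GALK1, at 648 to 892 reads per library, and whether reads were counted by strand is not given in the sources used here. ITGA7, the alpha7 chain known from muscle, had 37, 51 and 32 reads in E2-2, E2A and HEB, against 48 in vector. Its counting interval held 1 in all 3 comparisons with vector, and 3 other genes of the table with 10 or more reads overlap it. Both genes had few reads, and their intervals are wide.

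The fibronectin receptors and the beta1 chain had many reads and small differences. ITGB1, the common beta1 chain, was at 525 CPM in E2-2, 587 in E2A and 617 in HEB, against 636 CPM in vector. ITGA4, the alpha4 chain, was at 271, 348 and 325 CPM in E2-2, E2A and HEB, against 362 CPM in vector. For ITGA5, the alpha5 chain of the classical fibronectin receptor, the levels were 225 CPM in E2-2, 261 in E2A and 302 in HEB, against 330 CPM in vector. All 3 genes were lowest in E2-2 and highest in vector, and none was called. In E2-2, ITGB1 was lower than in vector by 1.21-fold (1.18 to 1.25), ITGA4 by 1.34-fold (1.28 to 1.39) and ITGA5 by 1.47-fold (1.41 to 1.53). Differences of this size cannot be set against culture-to-culture variation, which 1 library per group does not show.

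ITGAV, the alpha chain of receptors for vitronectin and other ligands with an RGD motif, was at 104 CPM in E2-2, 92.9 in E2A and 91.1 in HEB, against 105 CPM in vector. Its E2-2 level was 0.992 of that in vector (0.925 to 1.06). Its beta partners ITGB3, ITGB6 and ITGB8 had 0 or 1 read in each library. ITGB5, another partner, had 4 to 8 reads per library, which leaves ITGB1 as the one partner of ITGAV with more than 8 reads in any library. ITGA8, also an RGD receptor chain, had 2 to 5 reads per library.

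ITGA9, which pairs with beta1 and forms a subfamily with alpha4, had 227 reads in E2-2, 281 in E2A and 158 in HEB, against 147 in vector. E2-2 and E2A lay together above HEB and vector. It was 1.59-fold (1.28 to 1.97) of vector in E2-2 and 1.69-fold (1.38 to 2.07) in E2A, below the 2-fold rule, and 1.01-fold (0.804 to 1.28) in HEB. The overlapping antisense gene ITGA9-AS1 had 17 reads in E2-2, 45 in E2A and 17 in HEB, against 11 in vector, and reads of the 2 genes cannot be told apart without strand.

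Of 24 textbook pairs of alpha and beta chains among the members, 10 had 30 reads or more of each chain in both E2-2 and vector. Most of these 10 share beta1, so the reads of each alpha chain were taken per read of ITGB1. For ITGA6 this ratio was 0.390 in E2-2, 0.171 in E2A and 0.133 in HEB, against 0.122 in vector. It was higher by 3.18-fold (2.96 to 3.42) in E2-2 than in vector. For ITGA3 it was 0.0886 in E2-2, 0.0612 in E2A and 0.0445 in HEB, against 0.0228 in vector, which is higher by 3.89-fold (3.34 to 4.55) in E2-2. The third laminin receptor chain, ITGA7, had an E2-2 ratio 0.962 times that in vector (0.608 to 1.51), an interval that holds 1. The ratio was also higher in E2-2 for ITGA9, by 1.93-fold (1.56 to 2.39), and for ITGAV, by 1.20-fold (1.11 to 1.30). The level of ITGAV itself was 0.992 of vector in E2-2, and that of ITGB1, the shared denominator, was lower by 1.21-fold. The lower ITGB1 level enters each of these ratios. For the fibronectin receptor chain ITGA5 the ratio was 0.428 in E2-2 and 0.518 in vector, lower by 1.21-fold (1.15 to 1.28). The ITGA4 ratio was 0.516 in E2-2 and 0.569 in vector, lower by 1.10-fold (1.05 to 1.16). With ITGB4 in place of ITGB1, the same ITGA6 reads gave a ratio higher by 2.87-fold (2.00 to 4.13) in E2-2 than in vector. All these ratios follow from the reads of the single genes given above and are not separate results.

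**Figure D3:**
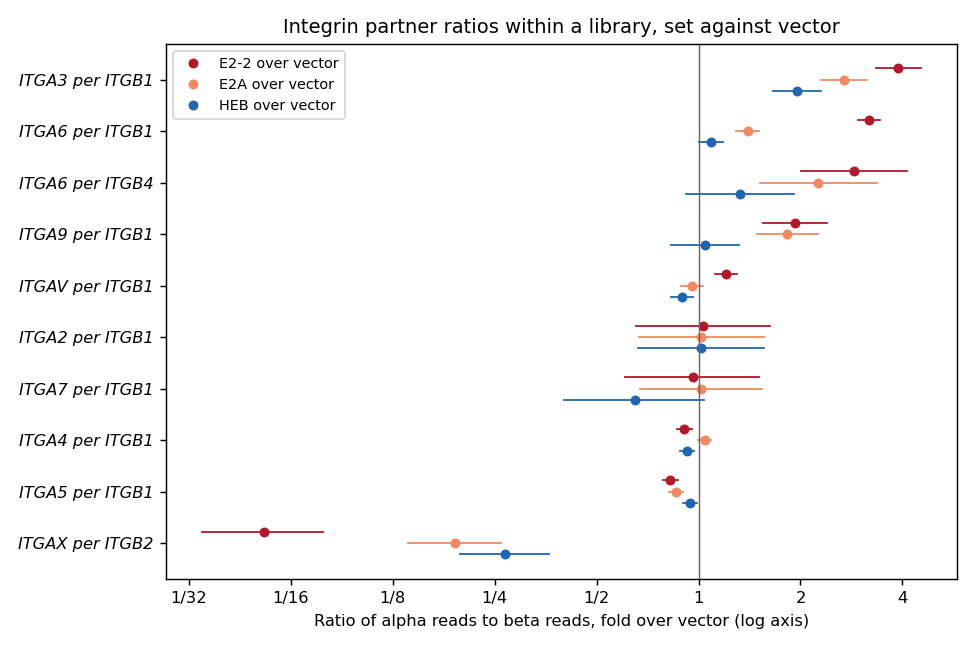
Reads of an alpha chain per read of its beta chain within each library, given as a fold over the same ratio in vector (log axis) for E2-2, E2A and HEB, with lines for 95% exact counting intervals. ITGAX per ITGB2 is 19.2-fold lower in E2-2, while ITGA3 and ITGA6 per ITGB1 are 3.89-fold and 3.18-fold higher.

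The collagen receptor chain ITGA2, the platelet chain ITGA2B and the alphaE chain ITGAE were not called in any of the 6 comparisons. ITGA10 had enough reads only in HEB against vector and was not called there. ITGA1, ITGA11, ITGB3 and ITGB7 had fewer than 30 reads in every pair of libraries, so they could not be called. ITGA2, the alpha2 collagen receptor chain, had 38 to 49 reads per library, and its counting intervals held 1 in all 6 comparisons. ITGA1, ITGA10 and ITGA11, the other collagen receptor chains, had 4 to 14, 9 to 19 and 1 to 5 reads per library, and ITGA1 overlaps PELO. ITGAE, the alphaE chain of intraepithelial lymphocytes, was at 10.7 CPM in E2-2, 8.32 in E2A and 8.64 in HEB, against 10.1 CPM in vector. Its one known partner, ITGB7, had 2 to 4 reads per library, and ITGB7 overlaps another gene, ZNF740. ITGAE also overlaps other genes of the table, so its reads without strand are uncertain.

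ITGA2B, the platelet chain alphaIIb, had 73 reads in E2-2, 89 in E2A and 135 in HEB, against 77 in vector. HEB was the highest library, at 8.16 CPM, with 4.81 CPM in E2-2, 5.04 in E2A and 4.94 in vector. The gene was 1.65-fold (1.24 to 2.22) of vector in HEB, not called. Its partner ITGB3 had 0 reads in E2-2, 1 in E2A and 0 in HEB, against 1 in vector. The 8 platelet and megakaryocyte markers summed to 8.57 CPM in E2-2, 6.57 in E2A and 5.56 in HEB, against 6.99 CPM in vector, with PPBP at 0 in all 4 libraries. Within that list GP9, a platelet receptor chain, had 55 reads in E2-2 and 1 in vector. The part of these markers in the ITGA2B values was not tested.

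Among the immunoglobulin-type receptors, ICAM1 differed most between the E protein libraries. ICAM1, the ligand of LFA-1 and Mac-1, had 118 reads in E2-2, 275 in E2A and 410 in HEB, against 207 in vector. These were 7.78, 15.6 and 24.8 CPM, against 13.3 CPM in vector. HEB was above vector, E2-2 below it and E2A within counting error of it. Relative to vector, ICAM1 in E2-2 was lower by 1.71-fold (1.35 to 2.16). In HEB it stood at 1.87-fold (1.58 to 2.22) of vector, and neither value was called. ICAM4, 352 bases from ICAM1 on chromosome 19, had 0 reads in all 4 libraries.

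PECAM1, a receptor at contacts between leukocytes and endothelium, had 755 reads in E2-2, 1086 in E2A and 1036 in HEB, against 1375 in vector. It was lower by 1.77-fold (1.62 to 1.94) in E2-2, lower by 1.43-fold (1.32 to 1.55) in E2A and lower by 1.41-fold (1.30 to 1.53) in HEB than in vector. All 3 values stayed under the 2-fold rule, with vector the highest library. ICAM3, a leukocyte ligand of LFA-1, had 51 reads in E2-2, 85 in E2A and 69 in HEB, against 99 in vector, and was lower by 1.89-fold (1.33 to 2.70) in E2-2.

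JAM3, a junctional adhesion molecule, was at 56.2 CPM in E2-2, 79.4 in E2A and 88.5 in HEB, against 88.2 CPM in vector. E2-2 was the lowest library, lower by 1.57-fold (1.44 to 1.71) than vector, which is not called. JAM3 overlaps NCAPD3, which was at 202 CPM in E2-2, 191 in E2A and 205 in HEB, against 191 CPM in vector, and reads of the 2 genes cannot be told apart without strand. ICAM2 had 5 to 8 reads per library, and VCAM1, the ligand of alpha4 with beta1, had 1 read in vector and 0 in the E protein libraries.

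SELPLG, which codes for the P-selectin ligand that lets leukocytes roll on vessel walls, had 10 reads in E2-2, 5 in E2A and 13 in HEB, against 7 in vector, too few for a fold. CD44, the hyaluronan receptor, had 3903 reads in E2-2, 4565 in E2A and 4890 in HEB, against 4844 in vector. It was lower by 1.21-fold (1.16 to 1.26) in E2-2 and lower by 1.20-fold (1.15 to 1.25) in E2A than in vector, both far from the 2-fold rule.

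The E protein libraries were next set against each other. Between E2-2 and E2A, 1 of 19 members was called higher in E2-2 (ITGA6; 3.63% of 14066 genes) and 2 lower (ITGAX and ICAM1; 1.61% of genes). Between E2-2 and HEB, the same 3 genes were called in the same directions, 1 of 19 higher (6.09% of 13891 genes) and 2 lower (1.57% of genes). Between E2A and HEB, 0 of 19 members were called higher (2.38% of 13944 genes) and 0 lower (0.696% of genes). No member thus separated E2A from HEB by the rule, while ITGA6, ITGAX and ICAM1 separated E2-2 from both.

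ITGA6 was higher by 2.04-fold (1.92 to 2.16) in E2-2 than in E2A and higher by 2.49-fold (2.33 to 2.65) than in HEB. ITGAX was lower by 2.37-fold (1.62 to 3.53) in E2-2 than in E2A and lower by 3.18-fold (2.20 to 4.70) than in HEB. ICAM1 was lower by 2.00-fold (1.61 to 2.50) in E2-2 than in E2A, right at the rule and not called with DESeq2 size factors, library totals or FPKM. Against HEB it was lower by 3.18-fold (2.59 to 3.94) in E2-2. ITGB2, called against vector in all 3 libraries, was higher by 1.55-fold (1.36 to 1.76) in E2-2 than in E2A and higher by 1.62-fold (1.42 to 1.85) than in HEB, below the rule. For ITGA3 the folds were 1.29 (1.16 to 1.44) for E2-2 over E2A and 1.69 (1.504 to 1.91) for E2-2 over HEB.

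**Figure D4:**
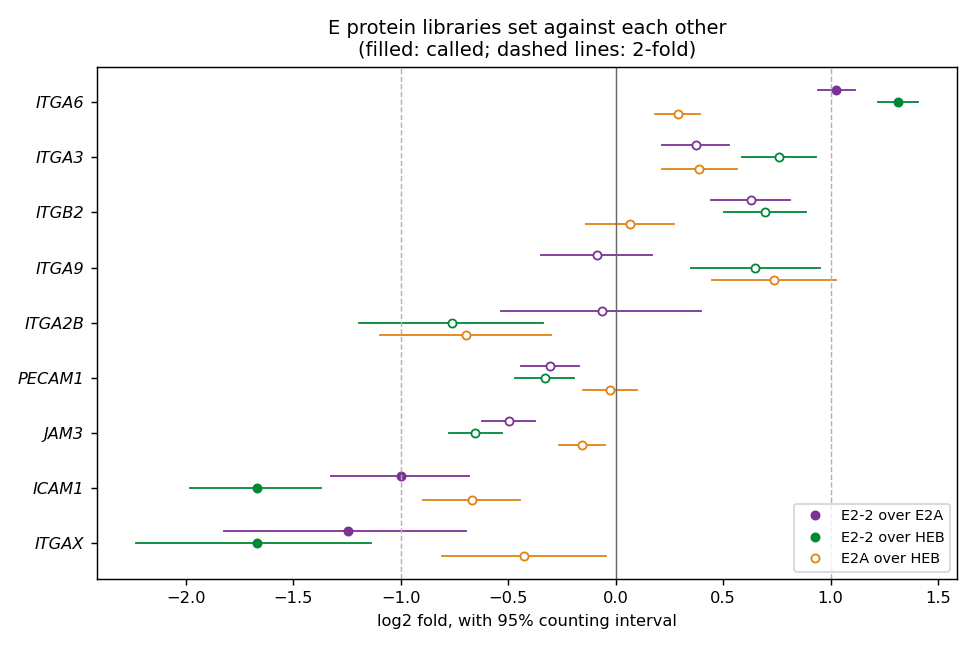
log2 fold (x axis) of 9 adhesion genes between pairs of E protein libraries, with lines for the 95% counting interval, filled points for called genes and dashed lines at 2-fold. ITGA6 lies above and ITGAX and ICAM1 below the 2-fold lines for E2-2 over HEB, and all points of E2A over HEB lie between the lines.

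Genes outside the members were counted by list. Among 32 genes for the proteins that link integrins to the cytoskeleton or switch them on, 28 were measured, with 4 called higher and 2 lower in E2-2, 1 higher and 0 lower in E2A, and 0 in either direction in HEB, each against vector. Over all genes, as given above, 8.45% were called higher and 3.55% lower in E2-2, 4.89% and 1.58% in E2A, and 2.55% and 1.23% in HEB, and these shares are the background for each list that follows. SKAP2, an adaptor for integrin activation in myeloid cells, was higher by 3.73-fold (3.28 to 4.25) in E2-2. RASSF5, which carries the RAP1 signal to LFA-1, was higher by 2.98-fold (2.34 to 3.83), and RASGRP2, which activates RAP1 in platelets and leukocytes, 2.10-fold (1.91 to 2.31). FYB, a partner of SKAP proteins, was higher by 3.47-fold (1.96 to 6.50). Among the lower genes was the kindlin gene FERMT1, with 28 reads in E2-2 and 59 in vector. The median log2 fold of the measured genes was 0.19 in E2-2, 0.13 in E2A and 0.01 in HEB. PARVG, a parvin of blood cells, was the call in E2A, at 2.25-fold (2.04 to 2.49).

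Of 10 SRC family and related kinase genes that act next to integrins, 8 were measured in E2-2 and in E2A and 7 in HEB. Of these, 4 were called higher in E2-2 and 4 in E2A, SRC, FYN and SYK among them in both, SYK alone was called in HEB, and 0 were lower in any of the 3. SYK, a kinase that signals below integrins and immune receptors, had 266 reads in E2-2, 150 in E2A and 75 in HEB, against 35 in vector. It was higher by 7.82-fold (5.48 to 11.5) in E2-2, higher by 3.78-fold (2.60 to 5.63) in E2A and higher by 2.02-fold (1.34 to 3.11) in HEB. SRC, the founding kinase of the family, had 136 reads in E2-2, 76 in E2A and 42 in HEB, against 28 in vector. The median log2 fold of the measured kinases was 0.90 in E2-2, 0.67 in E2A and 0.17 in HEB.

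Of 11 genes for the synthesis of selectin ligands, 10 were measured, and ST3GAL6, a sialyltransferase, was the 1 called, higher by 2.13-fold (1.87 to 2.42) in E2-2. The median log2 fold of that list was 0.46 in E2-2, 0.10 in E2A and 0.11 in HEB. Of 26 other leukocyte adhesion genes, 18 were measured in E2-2 and 19 each in E2A and HEB, and their median log2 folds were 0.09, -0.23 and -0.07. The calls in E2-2 were 3, with SPN (CD43, a sialomucin) higher and CD226 and CD93 lower. SPN was higher by 2.17-fold (2.02 to 2.32) in E2-2 and higher by 2.08-fold (1.94 to 2.22) in E2A than in vector. CD226, a lymphocyte adhesion receptor, had 111 reads in E2-2 and 289 in vector. In HEB the 1 called gene of that list was ICAM5, higher by 2.37-fold (1.76 to 3.24), and in E2A it was SPN.

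Of 25 matrix ligands of integrins, 10 were measured in E2-2 and in E2A and 8 in HEB. THBS1, which codes for the matrix protein thrombospondin 1, had 340 reads in E2-2 and 233 in E2A, against 44 in vector. It was higher by 7.95-fold (5.79 to 11.1) in E2-2 and higher by 4.67-fold (3.38 to 6.61) in E2A. LAMA5, a laminin alpha chain and so a ligand of the receptors that ITGA3 and ITGA6 form, had 2243 reads in E2-2 and 1134 in vector, higher by 2.03-fold (1.89 to 2.19). The median log2 fold of the list was 0.00 in E2-2, -0.18 in E2A and -0.01 in HEB, and in HEB 0 of the list were called.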

How the data were processed

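RNA was measured in 4 libraries, 1 per group. The deposited table gives the authors' unscaled counts of reads for each gene and, per the file headers, FPKM; the gene lengths behind FPKM are not in it. For the RNA and ChIP libraries together, HTSeq (0.9.1), TopHat2 (2.0.9), MACS2 (2.1.1.20160309) and Bowtie2 (2.2.9) appear in the submitters' processing notes with hg19 and hg38, their roles unstated. No source used here gives the annotation or the use of strand in counting, so overlapping genes are uncertain. Counts were scaled over all genes with edgeR 4.0.16 (TMM) in R 4.3.3. Folds have 95% Clopper-Pearson intervals from the conditional binomial distribution, ratios of partner chains have exact conditional odds ratio intervals, and levels have Poisson intervals (scipy 1.17.1). A fold needs at least 30 reads in the 2 libraries, and a count of 0 allows up to 3 reads. The rule was tested on simulated counts with counting error only, so differences between cultures are not covered by that test. Alternatives were DESeq2 1.42.0 size factors, library totals, FPKM, other read minimums and other fold thresholds. Members called against vector are given in full by rule, and reads or folds of single other members were added after their values were seen. Of each list outside the members, up to 4 called genes are named by rule and any further called gene after its values were seen; some genes of these lists are not reported here. The 3 list genes under newer symbols were matched by identifier. E-boxes were counted in the 250 bases before RefSeq starts, and the windows printed were chosen in the same way. The members and lists were chosen with earlier results of these data known. Replicates are absent, so no p-value is given. ITGB2, ITGAX, ITGA3 and 10 other members had no RefSeq window.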

Additional observations from a re-analysis of the deposited data

How the results depend on the processing

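No paired analysis was possible because each group has 1 library. The directions of the 5 called genes held in every comparison that called them with DESeq2 size factors, library totals and FPKM. The first pair of these moved all folds together by at most 0.0546 on the log2 scale. A shift of that size cannot reverse a gene called at 2-fold, so the held directions are no added check. For the called genes, folds from FPKM were nearly the same as those from library totals, so FPKM is hardly a separate alternative. With DESeq2 size factors, library totals or FPKM, members called lower in E2-2 than in E2A were 1 in place of 2, without ICAM1. Requiring the whole interval past 2-fold gave 0 lower in E2A than in vector, and 0 higher and 0 lower in E2-2 than in E2A. With a fold of at least 1.5, members called lower against vector were 5 in E2-2, 2 in E2A and 2 in HEB, and members called higher in HEB were 4. At 1.5, E2-2 had 3 higher than E2A, and 4 higher and 4 lower than HEB, and E2A had 1 higher and 2 lower than HEB. With no minimum of reads, 1 member (ITGA1) was higher in E2A than in HEB. The remaining 68 counts under alternatives lay within 1.5 times the reported ones. Depth limits the 15 members under 30 reads in every pair of libraries.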

Other observations

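Markers of other blood and tissue cells were read in the same 4 libraries. The 5 B cell markers summed to 30.7 CPM in E2-2, 22.4 in E2A and 17.1 in HEB, against 17.1 CPM in vector. Of these 5, 3 were measured in E2-2 against vector, and CD79A and PAX5 were the only ones called, both higher. CD79A, a signalling chain of the B cell receptor, had 141 reads in E2-2, 75 in E2A and 35 in HEB, against 30 in vector. PAX5, the B lineage transcription factor that t(8;21) leukemia cells are known to express, had 182 reads in E2-2, 95 in E2A and 64 in HEB, against 64 in vector. The 7 T and NK cell markers summed to 1.85 CPM in E2-2, 1.64 in E2A and 2.18 in HEB, against 3.46 CPM in vector, with GNLY at 0 in all 4. CD3D, a chain of the T cell receptor complex, had 2 reads in E2-2, 10 in E2A and 15 in HEB, against 34 in vector. The 10 endothelial, fibroblast and epithelial markers summed to 46.7 CPM in E2-2, 51.7 in E2A and 44.4 in HEB, against 58.3 CPM in vector, of which EPCAM gave 40.8 CPM or more in every library. KDR, an endothelial growth factor receptor of that list, had 38 reads in E2-2, 22 in E2A and 17 in HEB, against 8 in vector, and was called higher in E2-2 and in E2A than in vector and in E2-2 than in E2A and HEB. The 7 myeloblast markers summed to 12556 CPM in E2-2, 14620 in E2A and 19432 in HEB, against 16276 CPM in vector, most of it MPO. Within that list, CD33 was called higher than vector in each E protein library, and CD38 was called higher in E2-2 than in E2A. CD34 was lower than in vector by 1.53-fold in E2-2, 1.69-fold in E2A and 1.95-fold in HEB, not called.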
